A study of Mus musculus with 10 samples.

Results

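The genes described here are Hal, Ndufa12, Ndufa12-ps, Gm3055, Gm32687, 1190007I07Rik and Gm4924, whose level in male mouse embryonic stem cells (ESCs) follows how many wild-type Tdg alleles a line carries. They are 7 of the 35427 genes with a value in the files, and all 7 passed the filter on low reads that left 14105 genes. They were chosen by their measured levels in these same lines, so their differences between genotypes are given below as a description with no test. RNA from 10 ESC lines, labelled C57BL/6, was sequenced, with 1 library per line: 3 wt lines (Tdg+/+, 2 wild-type alleles), 3 Tdg+/- lines (1 allele) and 4 Tdg-/- lines (none). All lines were rederived from blastocysts of Tdg+/- parents, grown first on feeder cells and then without them in serum-free medium with 2i and LIF, and received no treatment. Which lines come from the same mating is not given, so the spread between lines includes any difference between matings.

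TDG is a DNA glycosylase that excises oxidised forms of methylated cytosine, which base excision repair then replaces. Hal encodes histidine ammonia-lyase, the first enzyme of histidine breakdown, known from liver and epidermis. Ndufa12 encodes an accessory subunit of complex I, which passes electrons from NADH into the mitochondrial respiratory chain, and Ndufa12-ps is its processed pseudogene, an intronless copy made from the mRNA. 1190007I07Rik encodes a small mitochondrial protein needed to assemble complex III, the next complex of that chain. Gm32687 and Gm4924 belong to the large family of C2H2 zinc finger genes, many of which lie in clusters of recent copies, and encode DNA-binding proteins that often act as repressors.

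Several of these genes share most of their sequence with another gene, which matters because the reads were divided between such copies by estimation. The stretches below show where Ndufa12 and its pseudogene can be told apart. Ndufa12-204, the main coding transcript (566 bases), and Ndufa12-ps (402 bases) differed at only 2 of 402 aligned bases, A176G and T455C, where the first base is that of Ndufa12-204 and positions count from its 5′ end. The capital marks the differing base within bases 156 to 196 and 435 to 475 of the transcript (GENCODE transcripts of the GRCm38 annotation, whose lengths equal those in the files).
Ndufa12-204, first difference: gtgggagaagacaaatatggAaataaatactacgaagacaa
Ndufa12-ps, first difference: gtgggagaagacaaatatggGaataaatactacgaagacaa
Ndufa12-204, second difference: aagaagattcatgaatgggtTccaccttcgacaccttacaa
Ndufa12-ps, second difference: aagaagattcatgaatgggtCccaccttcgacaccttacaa

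Of the 372 stretches of 31 bases in Ndufa12-ps, 316 (85.0%) also occurred in Ndufa12. Gm32687-201 (2379 bases) differed from Zfp433-202, a zinc finger transcript of the same region, at 3 bases, A392G, A683G and T1349C, and shared 96.0% of its 31-base stretches with Zfp433. Bases 372 to 412 hold the first of these differences, in capitals.
Gm32687-201: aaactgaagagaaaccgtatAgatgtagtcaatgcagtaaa
Zfp433-202: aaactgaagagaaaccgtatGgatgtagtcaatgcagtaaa

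Gm3055-202 and Zfp781-202, both of 4067 bases, differed at 4 positions outside the coding part (C1397T, A1812T, T3777G and T3908A), and 96.9% of the 31-base stretches of Gm3055-202 occurred in Zfp781. The remaining genes were more distinct. Hal transcripts shared 0.0 to 2.19% of their stretches with other genes and Gm4924-203 2.82%, whereas 1190007I07Rik transcripts shared 15.3 to 31.4%, mostly with 1810014B01Rik or Pwp1. A search of the reading frames for the C2H2 pattern (paired cysteines and paired histidines at the spacing of this family) found 17 matches in Gm32687-201 and 18 in Gm4924-203. Gm3055-202 held 0 such matches in a frame of 243 residues, as did Zfp781-202, while the shorter Gm3055-203 held 3.

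In the order of the annotation, 6 of the 7 genes lay on chromosome 10, as Tdg does, and Ndufa12-ps lay on chromosome 5. 1190007I07Rik was next to Tdg, with 0 protein-coding genes between them. Gm4924 had 2 protein-coding genes between itself and Tdg, Gm32687 had 9 and Gm3055 had 11, all on the same side as 1190007I07Rik. Hal and Ndufa12 lay on the other side, with 70 and 80 protein-coding genes in between. No coordinates are given because this annotation is of GRCm38 and the files were made on GRCm39.

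The lines held 31095285 to 39916039 reads in genes. Tdg itself matched the labels, at 86.5 to 93.2 CPM (this is the read count per 1000000 reads, with library sizes scaled by TMM) in the wt lines, 40.4 to 45.9 CPM in the Tdg+/- lines and 7.76 to 10.6 CPM in the Tdg-/- lines, and its main transcript shared 75.7% of its 31-base stretches with other genes, chiefly its pseudogene Tdg-ps. Of 10 pluripotency markers all had at least 20 reads in some line, with a summed level of 7580 to 10580 CPM, while 10 feeder fibroblast markers summed to 7.27 to 59.5 CPM. The median of chromosome 16 genes stood 0.40 (log2) above its middle level over the 10 lines in wt line 1, the chromosome 11 median was 0.20 to 0.42 in the Tdg+/- lines and at most 0.05 in the others, and the chromosome 10 median stayed between -0.04 and 0.02. Leaving out Tdg-/- line 1 raised the genes called between Tdg-/- and wt from 10 to 3077, and with the replicate number as a block, which has no partner for Tdg-/- line 4 and leaves it out, 5 genes were called (0.036%).

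The 7 genes fell into a group of 4 that were lower with fewer wild-type alleles (Hal, Ndufa12, Gm3055 and Gm32687) and a group of 3 that were higher (Ndufa12-ps, 1190007I07Rik and Gm4924). In 5 of the 7 the lines of the 3 genotypes followed the allele number without overlap, as did 23 of the 14105 tested genes (0.163%). Of these 23, 7 were on chromosome 10, among them the 5 listed genes and Tdg itself. Chromosome 10 held 652 of the 14105 tested genes. Without wt line 1 the order without overlap held for 6 of the 7, Ndufa12-ps joining them, against 0.496% of tested genes. Without Tdg-/- line 1 it held for the same 5 against 1.04%. Because this order is what chose the genes, these shares are a description. Without Tdg-/- line 1 the fitted change for each wild-type allele (log2) was 1.08 for Hal, 0.55 for Ndufa12, 1.67 for Gm3055, 2.55 for Gm32687, -1.48 for Ndufa12-ps, -0.61 for 1190007I07Rik and -0.55 for Gm4924. Without wt line 1 it was 1.25, 0.67, 1.89, 3.08, -2.43, -0.56 and -0.52 in the same order of genes, so Ndufa12-ps moved most.

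**Figure D1:**
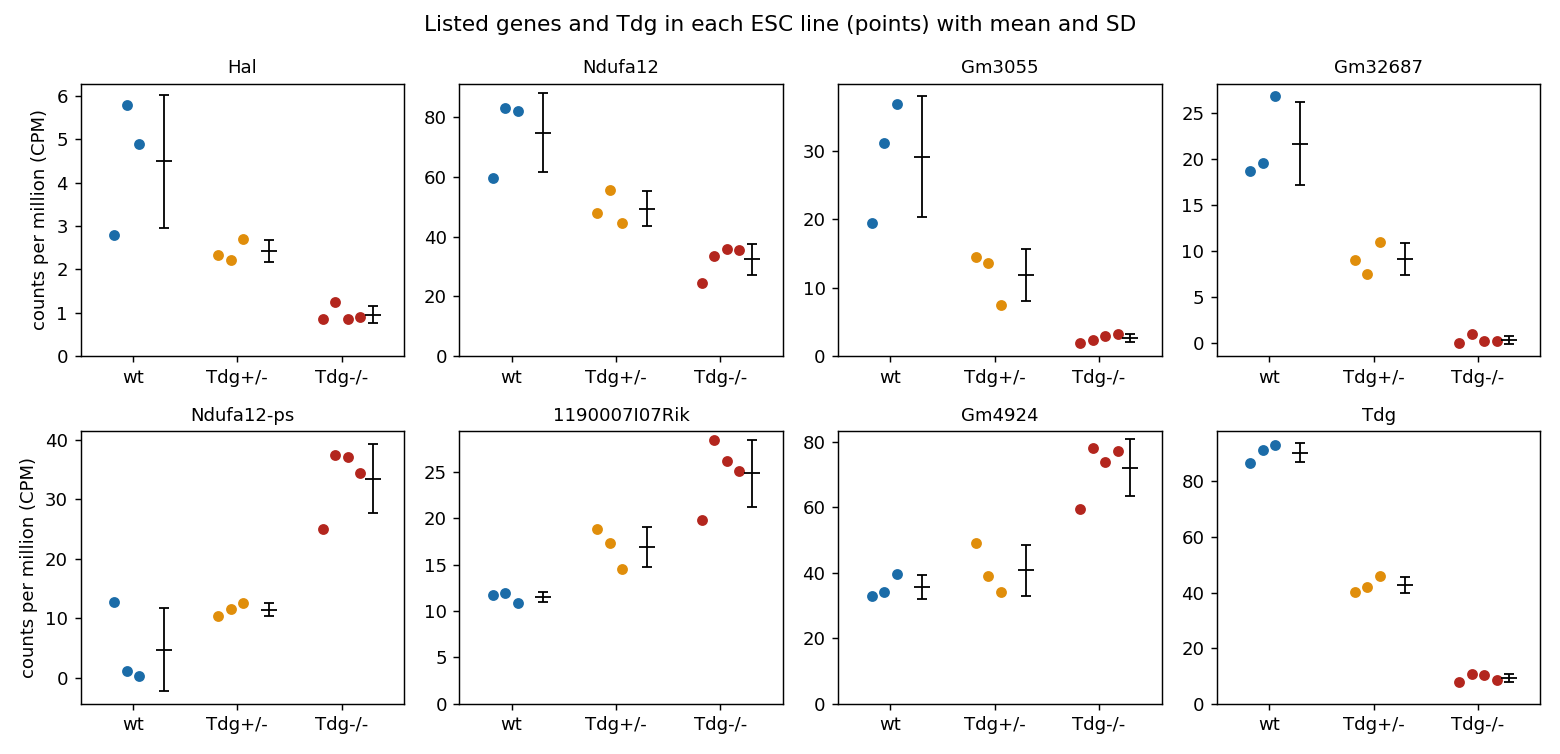
Normalised reads in CPM (y axis, linear, a separate scale in each panel) of the 7 genes and Tdg in each of the 10 ESC lines, as 1 point per line grouped by genotype on the x axis, with the mean and SD of each genotype as a black bar. Hal, Ndufa12, Gm3055 and Gm32687 step down and 1190007I07Rik steps up from wt to Tdg-/- with no overlap. In the Ndufa12-ps panel wt line 1 (12.7 CPM) lies just above the Tdg+/- lines, and the other wt lines lie below them.

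Per length, Hal had the lowest wt level of the group that fell (2.73 ± 1.06 TPM, the deposited values scaled by transcript length). In CPM it stood at 2.80, 5.79 and 4.89 CPM in the wt lines, 2.34, 2.22 and 2.70 CPM in the Tdg+/- lines and 0.845, 1.24, 0.844 and 0.891 CPM in the Tdg-/- lines. Wt line 1 was only just above the highest Tdg+/- line, and every Tdg-/- line was below every other line. These levels rested on 91 to 214 reads in wt, 78 to 112 in Tdg+/- and 28 to 45 in Tdg-/- ESCs. The mean was 4.49 ± 1.53 CPM (SD, n = 3) in wt, 2.42 ± 0.25 (n = 3) in Tdg+/- and 0.956 ± 0.192 (n = 4) in Tdg-/- ESCs, or 53.8% and 21.3% of wt. The fitted change was 1.12 (log2, standard error 0.14) for each wild-type allele.

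In the wt lines most Hal reads were given to transcripts other than the full coding one. Hal-202, which encodes the 657-residue enzyme, took 27.6 to 29.4% of Hal reads in the wt lines, and Hal-201, annotated as subject to nonsense-mediated decay, took 50.5 to 64.4%. In reads, Hal-202 was at 26.7 to 59.1 in wt, 22.2 to 44.3 in Tdg+/- and 1.7 to 23.1 in Tdg-/- lines, so wt and Tdg+/- overlapped for this transcript. For Hal-201 the 3 ranges were 50.7 to 137.8, 35.6 to 55.4 and 12.8 to 21.9 reads, so wt and Tdg+/- overlapped here too. Markers of the tissues that Hal is known from were near 0, with 9 of 10 liver and epidermis markers under 20 reads in every line, Cyp3a11 and Fgb at 0 throughout and a summed level of 1.39 to 2.92 CPM over all lines.

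Ndufa12 had the highest wt level per length of the 7 genes, at 141 TPM. Its wt lines stood at 59.6, 83.0 and 82.1 CPM, its Tdg+/- lines at 48.0, 55.7 and 44.4 CPM and its Tdg-/- lines at 24.6, 33.5, 35.8 and 35.5 CPM. No genotypes overlapped, although wt line 1 and Tdg+/- line 2 lay close together. The means were 74.9 ± 13.2 (SD, n = 3), 49.4 ± 5.77 (n = 3) and 32.3 ± 5.27 CPM (n = 4), so Tdg+/- kept 66.0% and Tdg-/- 43.2% of the wt level, and the fitted change was 0.61 (log2, standard error 0.08) for each allele.

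The fall of Ndufa12 was carried by Ndufa12-204. This transcript held 1535, 2474 and 2135 estimated reads in the wt lines, 1257, 1657 and 1450 in the Tdg+/- lines and 405, 687, 617 and 656 in the Tdg-/- lines. Ndufa12-203, a transcript annotated as subject to nonsense-mediated decay, overlapped across all 3 genotypes, at 374 to 504, 319 to 433 and 404 to 639 reads. As a result Ndufa12-204 took 79.1 to 81.6% of the gene's reads in wt and 48.6 to 56.6% in Tdg-/- lines. In TPM Ndufa12 was at 141 ± 17.4 in wt, 99.3 ± 11.9 in Tdg+/- and 41.1 ± 4.02 in Tdg-/- ESCs, a change of -1.77 (log2) between Tdg-/- and wt where the read counts gave -1.19.

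The pseudogene went the opposite way. Ndufa12-ps stood at 12.7, 1.08 and 0.251 CPM in the wt lines, from 413, 40 and 8 reads, then at 10.3, 11.5 and 12.5 CPM in the Tdg+/- lines and 24.9, 37.5, 37.1 and 34.4 CPM in the Tdg-/- lines. In CPM, wt line 1 stood just above all Tdg+/- lines, while the other wt lines were near 0. The fitted change of Tdg+/- against wt was 1.29 (log2, standard error 0.99), and it became 4.06 without wt line 1. For Tdg-/- against wt it was 2.87 with all lines and 5.63 without wt line 1, so the size of both rests on that line. With the replicate number as a block, and so without Tdg-/- line 4, the change of Tdg-/- against wt was 4.04.

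As a share of the reads of both genes, Ndufa12-ps took 17.6%, 1.29% and 0.305% in the wt lines, 17.7%, 17.1% and 21.9% in the Tdg+/- lines and 50.4%, 52.8%, 50.9% and 49.2% in the Tdg-/- lines. The share was thus much alike within Tdg+/- and within Tdg-/- lines and uneven among the wt lines. Summed, the pair stood at 72.3 to 84.1 CPM in wt, 56.9 to 67.2 in Tdg+/- and 49.5 to 72.9 in Tdg-/- lines, and Tdg-/- overlapped both other genotypes. The change of Tdg-/- against Tdg+/-, -0.61 (log2) for Ndufa12 alone, was 0.12 for the sum, and that for each allele fell from 0.61 to 0.13.

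The other pairs, Gm3055 with Zfp781 and Gm32687 with Zfp433, were split in a like way, and their sums were computed after their values were seen. Gm3055 stood at 19.4, 31.3 and 36.9 CPM in wt, 14.6, 13.6 and 7.45 CPM in Tdg+/- and 1.90, 2.40, 2.95 and 3.18 CPM in Tdg-/- lines. Every line of one genotype was clear of the next, with wt line 1 again the lowest of the wt lines. The means were 29.2 ± 8.90 (SD, n = 3), 11.9 ± 3.85 (n = 3) and 2.61 ± 0.57 CPM (n = 4), with Tdg-/- at 8.94% of wt, and the change was 1.75 (log2, standard error 0.16) for each allele.

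Nearly all of this came from Gm3055-202, the 4067-base transcript. It held 566, 1041 and 1016 estimated reads in wt, 354, 433 and 247 in Tdg+/- and 0.0, 0.0, 7.3 and 7.1 in Tdg-/- lines, so that it was at or near 0 in all 4 Tdg-/- lines. The 625-base Gm3055-203 stayed at 65.7 to 159.5, 61.5 to 131.6 and 62.9 to 99.7 reads, with all genotypes overlapping. In TPM, which gives the short transcript more weight, Gm3055 was at 24.4 ± 7.80, 13.5 ± 4.73 and 6.74 ± 0.84, a change of -1.79 (log2) for Tdg-/- against wt where the counts gave -3.46. On this scale wt line 1 (15.9 TPM) lay below Tdg+/- line 1 (18.3 TPM), so those genotypes overlapped.

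**Figure D2:**
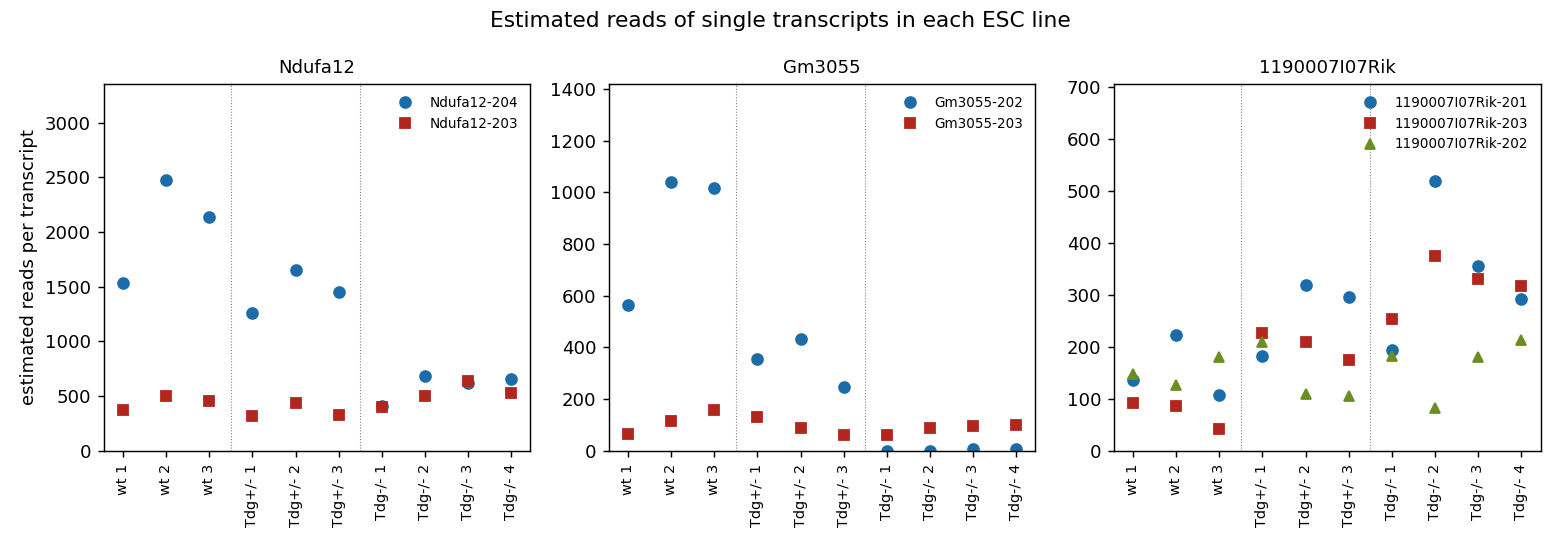
Estimated reads (y axis, linear) of single transcripts of Ndufa12, Gm3055 and 1190007I07Rik in each of the 10 ESC lines (x axis), with dotted lines between genotypes and 1 marker shape per transcript. Ndufa12-204 and Gm3055-202 drop from wt to Tdg-/- while Ndufa12-203 and Gm3055-203 overlap across the genotypes, and 1190007I07Rik-203 rises while 1190007I07Rik-202 does not.

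Zfp781, the near-identical neighbour of Gm3055, was at 15.3, 21.3 and 28.6 CPM in wt, 16.5, 16.8 and 19.4 in Tdg+/- and 23.6, 35.0, 31.8 and 32.3 CPM in Tdg-/- lines. It was higher in Tdg-/- than in Tdg+/- lines by 0.81 (log2, standard error 0.15), with no overlap, although Tdg-/- line 1 lay within the wt range. Zfp781 took 40.5 to 44.1% of the pair's reads in wt, 53.1 to 72.2% in Tdg+/- and 91.1 to 93.6% in Tdg-/- lines. The summed pair was at 34.8 to 65.4, 26.8 to 31.01 and 25.5 to 37.4 CPM, which left 0.29 (log2) of the 1.75 for each allele.

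Gm32687 showed the steepest drop. It was at 18.7, 19.5 and 26.9 CPM in wt, 9.01, 7.48 and 10.9 CPM in Tdg+/- and 0.0, 0.938, 0.197 and 0.267 CPM in Tdg-/- lines. The last group rested on 0, 34, 7 and 9 estimated reads, so few reads were given to the gene without a wild-type allele. In Tdg-/- line 1 all 974 reads of Gm32687 and its near-identical copy Zfp433 were given to Zfp433. This division is an estimate, so the 0 is not a direct count. Means were 21.7 ± 4.49 (SD, n = 3), 9.14 ± 1.74 (n = 3) and 0.351 ± 0.408 CPM (n = 4), or 42.2% and 1.62% of wt. The fitted change of Tdg-/- against wt was -5.88 (log2, standard error 0.61), and -7.06 without Tdg-/- line 2, the line with most reads.

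Its copy Zfp433 was at 15.9, 24.4 and 27.9 CPM in wt, 26.3, 25.0 and 18.6 CPM in Tdg+/- and 29.4, 46.3, 44.4 and 47.9 CPM in Tdg-/- lines. All Tdg-/- lines were above the others, and the step from Tdg+/- was 0.85 (log2, standard error 0.19). Zfp433 took 46.0 to 55.6% of the reads of both genes in wt, 62.9 to 77.0% in Tdg+/- and at least 98.0% in all Tdg-/- lines. The sum of both was at 34.6 to 54.8, 29.5 to 35.3 and 29.4 to 48.2 CPM, and its change for each allele was 0.02 (log2) where Gm32687 alone gave 2.83. Since each copy draws on the same reads as its listed gene, no test is given for it. For all 3 pairs, how far the estimated division of reads set these levels was not tested.

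**Figure D3:**
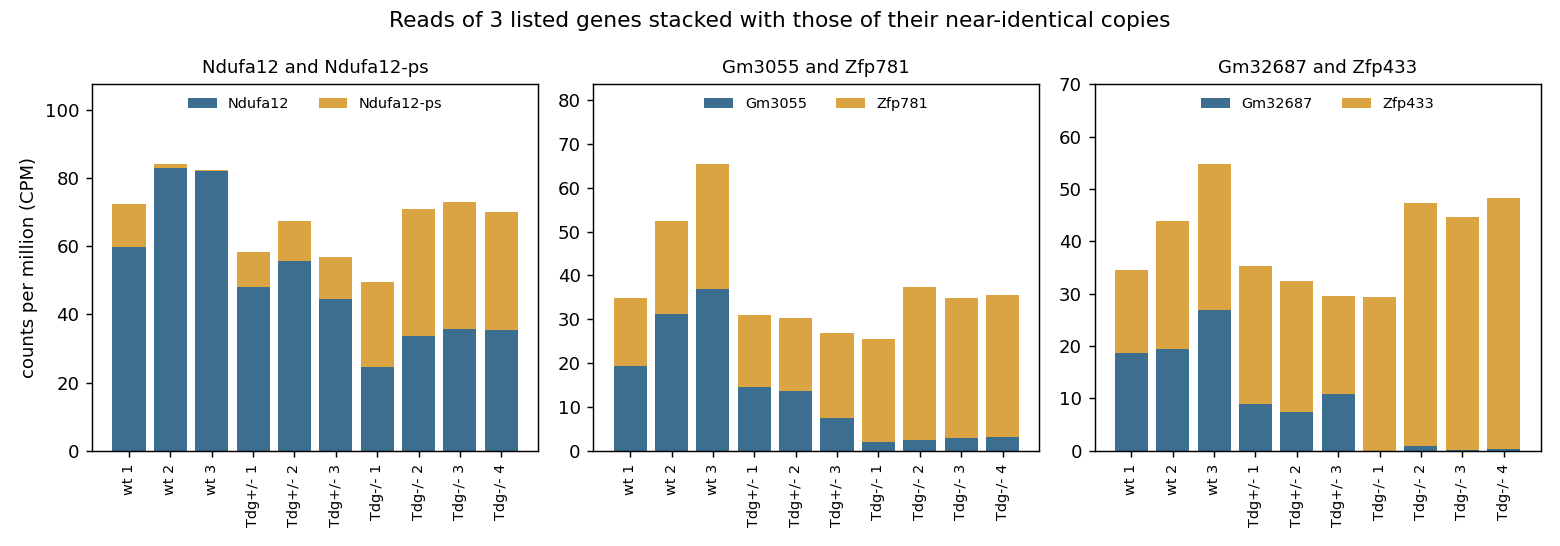
Normalised reads in CPM (y axis, linear, from 0) in each of the 10 ESC lines (x axis), with the listed gene in blue and its near-identical copy stacked on it in yellow, for Ndufa12 with Ndufa12-ps, Gm3055 with Zfp781 and Gm32687 with Zfp433. The blue part shrinks from wt to Tdg-/- in each panel, and the yellow share reaches 49.2 to 52.8%, 91.1 to 93.6% and at least 98.0% in the Tdg-/- lines.

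1190007I07Rik, the gene next to Tdg, was higher with fewer wild-type alleles. Its wt lines stood at 11.7, 11.9 and 10.9 CPM, its Tdg+/- lines at 18.8, 17.4 and 14.5 CPM and its Tdg-/- lines at 19.9, 28.4, 26.1 and 25.1 CPM. The genotypes did not overlap, with Tdg-/- line 1 only just above the highest Tdg+/- line. The means of 11.5 ± 0.56 (SD, n = 3), 16.9 ± 2.18 (n = 3) and 24.9 ± 3.62 CPM (n = 4) put Tdg-/- at 2.17 times the wt level, and the change was -0.56 (log2, standard error 0.07) for each wild-type allele. In TPM, Tdg+/- lines at 39.7 to 60.0 overlapped Tdg-/- lines at 57.2 to 67.3.

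By transcript, 1190007I07Rik-203 held 91.4, 87.2 and 42.8 reads in wt, 226, 209 and 175 in Tdg+/- and 254, 375, 331 and 317 in Tdg-/- lines, in the order of the genotypes with no overlap. 1190007I07Rik-201 ranged over 107 to 223, 183 to 319 and 194 to 520 reads, with overlap. 1190007I07Rik-202 showed no such order, at 127 to 182, 106 to 210 and 81.5 to 213 reads. The reading frames of these 3 transcripts have the same length of 67 residues.

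Gm4924, like Ndufa12-ps, did not separate wt from Tdg+/- lines. It was at 32.9, 34.1 and 39.7 CPM in wt, 49.2, 39.0 and 34.1 CPM in Tdg+/- and 59.6, 78.0, 73.7 and 77.4 CPM in Tdg-/- lines. Wt and Tdg+/- overlapped, and all 4 Tdg-/- lines were above both. The means were 35.6 ± 3.62 (SD, n = 3), 40.8 ± 7.70 (n = 3) and 72.2 ± 8.60 CPM (n = 4), with Tdg-/- at 2.03 times wt. Gm4924-203, the transcript with 18 C2H2 matches, took 94.3 to 96.2% of its reads in every line, at 1018 to 1210 reads in wt and 1883 to 2687 in Tdg-/- lines.

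The place of Tdg+/- can be given as its distance from Tdg-/- in percent of the distance between wt and Tdg-/- (mean CPM), where 50 would be the midpoint. Tdg stood at 41.3. Hal (41.4), Ndufa12 (40.1), Gm3055 (34.8) and Gm32687 (41.2) stood near Tdg or below it. The genes that rose stood higher, at 59.7 for 1190007I07Rik, 76.5 for Ndufa12-ps and 85.8 for Gm4924. In mean CPM their Tdg+/- lines thus lay nearer to wt, but the place depends on this linear scale. In log2, the fitted changes of Tdg+/- against wt and of Tdg-/- against Tdg+/- were -0.61 and -0.61 for Ndufa12. They were -0.903 and -1.335 for Hal, -1.312 and -2.18 for Gm3055 and -1.255 and -4.667 for Gm32687. The genes that rose gave 0.546 and 0.561 (1190007I07Rik), 1.288 and 1.55 (Ndufa12-ps) and 0.186 and 0.826 (Gm4924). The percent positions have no interval, and with 3 or 4 lines a genotype their order was not tested.

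Across the 10 lines, the log2 levels (CPM, prior count 2) of the 4 genes that fell moved together, with Pearson's r of 0.904 to 0.970 between any pair of them. 1190007I07Rik and Gm4924 had an r of 0.925, and Ndufa12-ps had 0.808 with the former and 0.626 with the latter. The points share 10 libraries in 3 genotype steps, so genes that differ between the genotypes are alike by that alone. Among the 12194 genes whose mean reached 1 CPM, with the listed genes left out of the ranking, Tdg was the gene most like Hal (r = 0.960), Gm3055 (0.966) and Gm32687 (0.959), and the second most like Ndufa12 (0.929) after the pseudogene Gm13092 (0.938).

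Next for Hal and Gm32687 came Lrrc15 on chromosome 16 (0.949 and 0.916), and for Gm3055 Cdk17 (0.926), which lies beside Hal on chromosome 10. Zfp365, a zinc finger gene on chromosome 10, was the next for Ndufa12 (0.889). By the highest positive r, the genes most like those that rose lay on other chromosomes. They were Urah on chromosome 7 (0.951) for 1190007I07Rik, Gm10282 on chromosome 8 (0.966) for Gm4924 and the pseudogene Gm9512 on chromosome 13 (0.949) for Ndufa12-ps. A gene with the opposite pattern cannot rank here. Tdg had an r of -0.918 with both 1190007I07Rik and Gm4924, and -0.777 with Ndufa12-ps.

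Whether genes beside the listed ones moved as well was asked with the 3 nearest tested genes on each side. These were 30 genes, of which Zfp433 and Zfp781 share reads with listed genes and are left out of the counts below. In the trend over allele number edgeR called 0 of the other 28 (0.0354% of all tested genes were called). That share is made up of Tdg and 4 of the listed genes, which were chosen by this pattern. An unadjusted p under 0.05 was held by 6 of the 28 (14.0% of all genes), and DESeq2 called 2 (0.363%). For Tdg+/- against wt edgeR called 0 (background 0.0288%), while 4 had an unadjusted p under 0.05 (17.0% of all genes) and DESeq2 called 1 (5.37%). Between Tdg-/- and wt edgeR called 0 (background 0.0718%), with and without the replicate block, while 7 had an unadjusted p under 0.05 (15.9%) and DESeq2 called 1 (0.705%). Leaving out Tdg-/- line 1 there gave 9 of the 28, beside 22.1% of all genes. Over chromosome 10 as a whole, edgeR called 0 of 645 further genes in the trend, while DESeq2 called 4, and by the unadjusted p (under 0.05) 48 were higher and 52 lower with more wild-type alleles.

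For Tdg-/- against Tdg+/- edgeR called 4 of the 28, 3 higher and 1 lower, where 9.03% of all tested genes were called. The 3 that were higher were in the stretch that holds Gm3055, Gm32687, 1190007I07Rik and Gm4924, and were the zinc finger gene Zfp873 (0.80 on the log2 scale, standard error 0.13, adjusted p = 0.0236), BC024063 (0.64, standard error 0.16, adjusted p = 0.0428) and AU041133 (0.99, standard error 0.20, adjusted p = 0.0268). Zfp873 was at 16.9 to 23.0 CPM in wt, 19.1 to 21.0 in Tdg+/- and 29.6 to 38.6 CPM in Tdg-/- lines, so Tdg-/- stood apart from both other genotypes. For BC024063 and AU041133 wt and Tdg-/- lines overlapped, at 28.5 to 42.2 against 35.0 to 56.6 CPM and 2.74 to 10.9 against 9.42 to 15.6 CPM.

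The 12 genes around Hal and Ndufa12 had 0 calls by edgeR in this comparison, 3 at an unadjusted p under 0.05 and 2 calls by DESeq2, where 35.2% of all genes had such a p and DESeq2 called 23.6%. Snrpf, which encodes a core protein of the spliceosome and lies beside Hal, came nearest to a call, at 48.4 to 62.0 CPM in wt, 49.9 to 66.5 in Tdg+/- and 39.0 to 42.8 CPM in Tdg-/- lines (-0.46 on the log2 scale for Tdg-/- against Tdg+/-, standard error 0.13, adjusted p = 0.0511 from edgeR). All Tdg-/- lines were below the other lines. Cdk17, a cyclin-dependent kinase gene, was at 42.1 to 54.5 CPM in wt, 40.5 to 43.6 in Tdg+/- and 32.98 to 36.7 CPM in Tdg-/- lines (-0.30, standard error 0.10, adjusted p = 0.0791 from edgeR). Vezt, beside Ndufa12 and coding for an adherens junction protein, differed by 0.16 (standard error 0.11, adjusted p = 0.331), and Lta4h, an enzyme of leukotriene synthesis beside Hal, by -0.26 (standard error 0.15, adjusted p = 0.233). Elk3, an ETS transcription factor gene, was at 6.12 to 9.30 CPM in wt, 4.10 to 4.70 in Tdg+/- and 4.14 to 4.77 CPM in Tdg-/- lines, so that wt stood above both, and its change of Tdg-/- against wt was -0.70 (standard error 0.19, adjusted p = 0.295). On chromosome 5, Tmem248 beside Ndufa12-ps was the gene that was lower (-0.64, standard error 0.17, adjusted p = 0.0488).

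The calls between Tdg-/- and Tdg+/- depended on the lines used. Leaving out any one of Tdg+/- lines 2 and 3 or Tdg-/- lines 2, 3 and 4 left 0 of the 28 called. Over all genes these fits called only 12 to 22 (0.0864% to 0.158%), so the loss was not particular to the nearby genes. Leaving out Tdg-/- line 1 gave 14 of 28, where 40.6% of all genes were called, and leaving out Tdg+/- line 1 gave 6, beside 1535 of 13911 genes in all.

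**Figure D4:**
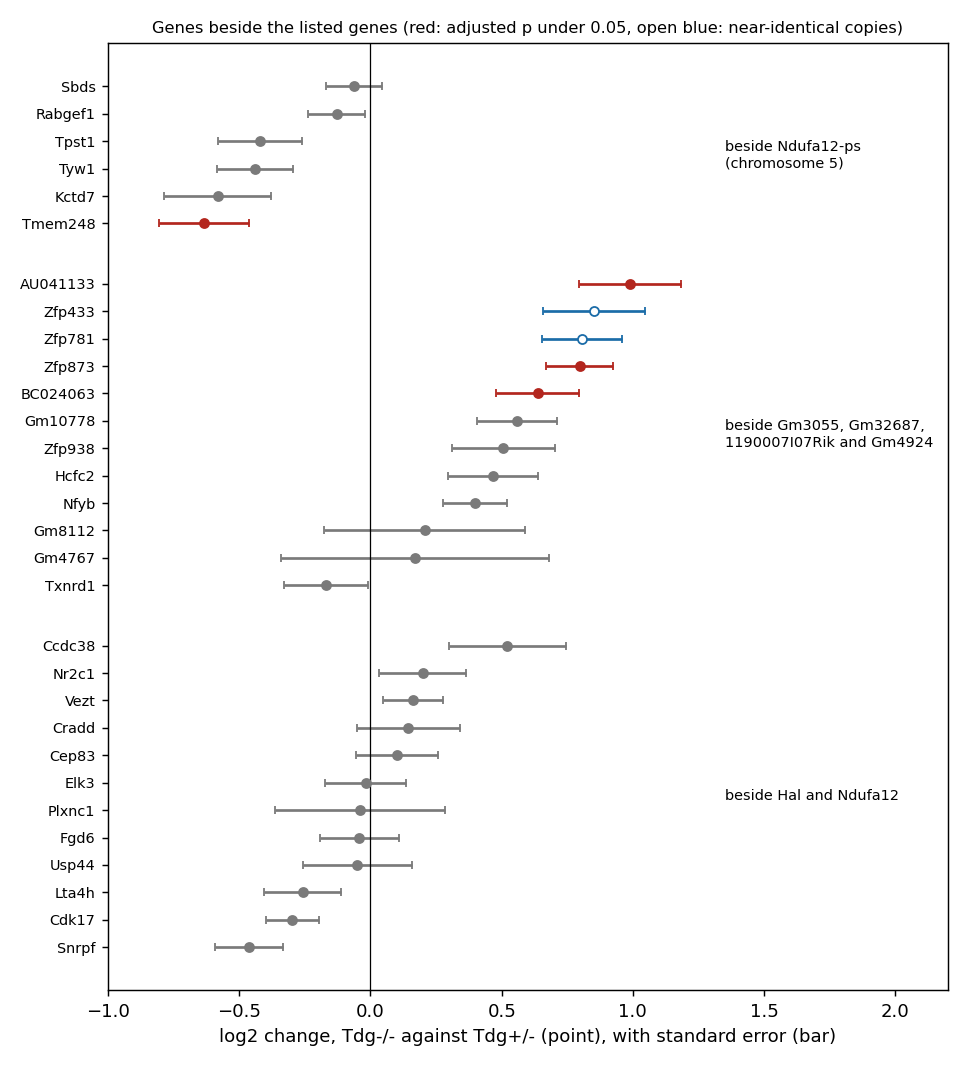
The log2 change of Tdg-/- against Tdg+/- ESCs (x axis, point) with its standard error (bar) for the 30 genes nearest to the listed ones (y axis), in 3 blocks by position, red where the adjusted p from edgeR was under 0.05 and open blue for the near-identical copies Zfp433 and Zfp781. The 3 red genes to the right belong to the block around Gm3055, Gm32687, 1190007I07Rik and Gm4924, and the 12 genes beside Hal and Ndufa12 are all grey.

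The other genes of the pathways were read from lists that leave out the listed genes. Of the histidine list only 3 of 9 genes had enough reads to test, the histidyl-tRNA synthetase gene Hars2 and the dipeptide genes Cndp2 and Carns1, and edgeR called 0 of them in any comparison, with 1 at an unadjusted p under 0.05 for Tdg+/- against wt and 1 for Tdg-/- against Tdg+/-. Hars2 was at 32.3, 30.1 and 39.9 CPM (means of wt, Tdg+/- and Tdg-/-), and its difference between Tdg-/- and Tdg+/- was 0.41 (log2, standard error 0.15, adjusted p = 0.0937), the 1 gene of the list that DESeq2 called there. Cndp2 was at 111.9, 111.3 and 112.5 CPM. The enzymes that follow Hal in histidine breakdown, Uroc1, Amdhd1 and Ftcd, were among the genes not tested.

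For the complex I subunits other than Ndufa12 the median pointed the other way. Of 43 tested, edgeR called 0 in the trend, where 3 were higher and 20 lower with more wild-type alleles by the unadjusted p (under 0.05), and where DESeq2 called 0. Of all genes 14.0% had such a p. Their median change was -0.14 (log2) for each allele beside 0.02 over all genes, the direction opposite to Ndufa12. For Tdg-/- against Tdg+/- the median was 0.29 beside -0.02 over all genes, and the 1 call was mt-Nd1, a subunit encoded in the mitochondrial genome, which was lower (-0.46, standard error 0.13, adjusted p = 0.0492). Without Tdg-/- line 1 the calls in this comparison rose to 25 of 43, beside 40.6% of all genes, and with other size factors there were 0. Between Tdg-/- and wt edgeR called 0 of the 43 while DESeq2 called 2, and by the unadjusted p 20 were higher and 4 lower, where DESeq2 called 0.705% of all genes and 15.9% had such a p. Without Tdg-/- line 1 edgeR called 26 of the 43 there, beside 22.1% of all genes.

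Among 16 complex I assembly factors 1, Ndufaf4, was called between Tdg-/- and Tdg+/-, where 9.03% of all genes were called (0.85 on the log2 scale, standard error 0.12, adjusted p = 0.0211 from edgeR). Its mean was 48.2 CPM in wt, 30.0 in Tdg+/- and 53.8 in Tdg-/- ESCs, so it did not follow the allele number. Of 16 complex III subunits and assembly factors, 2 were called in the same comparison, beside the same 9.03%. Uqcrc2, a core subunit, was higher (0.53, standard error 0.14, adjusted p = 0.0478) and mt-Cytb, the mitochondrially encoded cytochrome b, was lower (-0.60, standard error 0.15, adjusted p = 0.0436). In the trend edgeR and DESeq2 each called 0 of both lists, with 3 and 7 genes at an unadjusted p under 0.05. Of these calls, those of Ndufaf4's list were absent on leaving out Tdg+/- line 2 or 3 or Tdg-/- line 2, 3 or 4, and those of the complex III list on leaving out any line but Tdg-/- line 1, without which they numbered 8 and 9 of 16, beside 40.6% of all genes. Between Tdg-/- and wt, leaving out Tdg-/- line 1 gave 6 and 8 of 16, beside 22.1%.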

How the data were processed

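Total RNA was depleted of ribosomal RNA and made into stranded libraries, whose single-end reads the authors quantified per transcript with Salmon 0.8.1 on GRCm39. The deposited values are estimated counts (expected counts, not whole, not normalized), TPM and effective lengths per transcript, and the deposited TPM served here only as a comparison. Salmon divides reads that match several transcripts by estimation. Here the transcripts' estimated counts were added up for each gene, then rounded. Transcripts were paired with genes by identifier through GENCODE and RefSeq tables of GRCm38 (98.97% of 116357 transcripts), and unpaired reads (0.472% to 0.499% per line) were left out. Depth was 31095285 to 39916039 reads per line, and 2 lines of a genotype never held the same library.

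Genes that reached 20 reads in 1 or more lines of a fit were tested with edgeR 4.0.16 (quasi-likelihood, TMM) in R 4.3.3, at an adjusted p (Benjamini-Hochberg over all genes) under 0.05. The 4 fits were the trend over wild-type Tdg alleles and the 3 pairs of genotypes. Alternatives were DESeq2 1.42.0, other size factors, no filter, a length offset, a replicate block, 3 surrogate variables (sva 3.50.0), each line left out and summed copies. The scripts were tested on simulated data. Shared sequence was counted over stretches of 31 bases between annotated transcripts. The listed genes, gene lists and tests were chosen with earlier results of these data known. Named genes were Tdg, the 7 genes, the 3 nearest tested genes on each side (Tdg itself also left out), called genes of each pathway list or else up to 4 with the smallest trend p, the 3 genes most alike and chromosome 10 genes called in the trend. Hars1, Coa1, Uqcc4 and Uqcc5 of the lists were not matched. Between wt and Tdg-/-, lines with the same replicate number deviated together only weakly (r of 0.136 to 0.167 over genes, -0.156 to 0.058 for different numbers). Different numbers reached an r of 0.166 between wt and Tdg+/- and 0.255 between Tdg+/- and Tdg-/-. Whether the numbers pair the lines is therefore not settled. The numbers come from the labels, which do not say what they mark. The p-values measure the spread between lines.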

Additional observations from a re-analysis of the deposited data

Results flagged for a closer look

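Hal in Tdg-/- line 2 stood at 1.24 CPM, apart from the other Tdg-/- lines at 0.844 to 0.891 CPM, with a gap to its nearest neighbour of 0.881 of the group's range (above the critical value of Dixon's test for 4 values). It was the 1 value past this limit among 12 sets of 4 Tdg-/- values examined, and chance alone flags about 1 set in 20. The line rested on 45 reads against 28 to 30 in the others.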

How the results depend on the processing

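The log2 changes of the 7 genes kept their direction in 385 of 385 recomputations that kept the genes separate, and 21 of these moved by more than 1 SD between lines. These recomputations reuse the same counts, and the genes were chosen by this pattern in these same lines. The kept direction is therefore a description and no independent support. Summing a gene with its copy turned the change of Tdg-/- against Tdg+/- from -0.61 to 0.12 for Ndufa12, from -2.18 to 0.18 for Gm3055 and from -4.67 to 0.39 for Gm32687 (the last 2 sums were chosen after seeing the data). The genes called in the trend numbered 5, and 12 with no filter on low counts, 51 with DESeq2 and 10 with 3 surrogate variables. For Tdg+/- against wt they numbered 4, and 269 with no filter, 744 with DESeq2, 0 with the length offset (edgeR) and 33 with the replicate block. For Tdg-/- against wt 10 genes were called, and 19 with no filter, 98 with DESeq2 and 5 with the replicate block. For Tdg-/- against Tdg+/- 1261 were called, and 3290 with DESeq2, 464 with the length offset and 7 with the replicate block. Leaving out 1 line gave 2 to 11 calls in the trend, 0 to 207 for Tdg+/- against wt (0 without wt line 2, 207 without Tdg+/- line 1), 3 to 3077 for Tdg-/- against wt and 12 to 5659 for Tdg-/- against Tdg+/- (the highest without Tdg-/- line 1 in both). The 6 nearby genes (copies included) called between Tdg-/- and Tdg+/- became 13 with DESeq2, 2 with the length offset and 0 with the replicate block (edgeR). They numbered 0 to 16 on leaving out 1 line, and were again 6 with 5 genes on each side. As Zfp433 and Zfp781 share reads with listed genes, counts that include them are a description with no test. Without these copies edgeR called 4 of 28, beside 9.03% of all genes. DESeq2 then called 11 (23.6% of all genes), the length offset gave 2 (3.32%) and the replicate block 0 (0.0503%). The cause of these shifts was not tested. For Tdg-/- against wt, where lines of the same number deviated together weakly, the block (without Tdg-/- line 4) changed no other call given here. In the comparisons with Tdg+/- lines the r for the same number was -0.032 to 0.104 with wt and -0.089 to 0.038 with Tdg-/-. What a call lost under the block means was not tested. Reads were few for Hal (28 to 45) and Gm32687 (0 to 34) in Tdg-/- lines and for Ndufa12-ps in wt lines 2 and 3 (40 and 8).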
